A study of Arabidopsis thaliana with 18 samples.

Results

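L-Kyn was compared with mock treatment in root tips of Arabidopsis thaliana that had been cut, at 6 h, over all loci of the deposited count table. Of the 18 libraries of the series, 5 belong to this comparison. The mock cut group (2 libraries) holds apical root meristems taken 6 h after the cut. The L-Kyn cut group (3 libraries) holds cut meristems given 100 µM L-Kyn (L-kynurenine) for 6 h. Seedlings of both groups were 7 days old, and the cut was made 120 µm above the quiescent centre. Neither ecotype nor genotype is stated in the labels used here, and the text on the L-Kyn treatment in the labels is incomplete, so the order of drug and cut is not known. The hours are counted from the cut for mock and from the drug for L-Kyn. Uncut tips serve for the last comparison, with 3 mock libraries that carry no time and 2 libraries given 100 µM L-Kyn for 6 h. Whether replicates came from separate pools of seedlings is not given, so a p-value here speaks only of how these libraries vary, and that variation may be technical.

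Auxin (indole-3-acetic acid) is made from tryptophan in a route of consecutive enzymes. The aminotransferase TAA1 and its relatives, the enzymes that L-Kyn blocks, make indole-3-pyruvate, and the YUCCA monooxygenases turn that into auxin. Auxin binds TIR1/AFB receptors, which removes the Aux/IAA repressors and frees the auxin response factors. Many Aux/IAA and GH3 genes are themselves induced by auxin, so their RNA is often read as a measure of the response. In the root tip auxin is known for its part in the stem cell niche, in cell division and in the rebuilding of a cut tip.

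Reads on genes ran from 1280947 to 4503955 in the 5 libraries, so that 3 counts correspond to 0.666 to 2.34 CPM (counts scaled to a common library size, with TMM library factors in the levels given below). Such floors and the counting intervals below cover counting error only. L-Kyn replicate 1 stood apart in its depth, with 47.0% of its table total set aside as low alignment quality against 74.5% to 83.2% in the other 4 libraries. The Spearman correlation over genes was 0.970 between the mock libraries, 0.932 to 0.953 among the L-Kyn libraries and 0.923 to 0.957 between the groups. Mock replicate 2 stood apart in genes of the endodermis, the barrier layer around the root's vascular core. CASP1 (AT2G36100), a protein of the Casparian strip, was at 0 and 39.7 CPM in the mock libraries and 0.718, 0 and 0.4796 CPM in the L-Kyn libraries. ESB1 (AT2G28670), a dirigent protein of the same structure, was at 3.08 and 44.3 CPM in the mock libraries and 3.11, 3.06 and 5.75 CPM in the L-Kyn libraries. The summed level of the 10 endodermis genes was 41.9 and 172 CPM in the mock libraries and 68.4, 74.2 and 62.8 CPM in the L-Kyn libraries, and 6 of them were at 0 in mock replicate 1. The median log2 fold change of the 8 endodermis genes tested was -2.37, with 5 negative, and 1.502, with 8 of 8 positive, without mock replicate 2. Of 13 epidermis and root hair genes, 4 were at 0 in mock replicate 1 and 0 in mock replicate 2. The 7 tested had a median log2 fold change of -0.09, with 5 negative. Their lowest log2 fold change was -5.43 without mock replicate 1 (10 tested) and -1.28 without mock replicate 2 (8 tested). Genes of the root cap were low in every cut library, with a summed level of 10 genes between 13.5 and 21.1 CPM against 55.8 to 289 CPM in uncut mock tips. Genes of green tissue, which a root tip should lack, summed to 226 and 431 CPM in the mock libraries and 418, 292 and 153 CPM in the L-Kyn libraries, and the groups overlapped. Counts from bulk tissue cannot tell fewer cells of a type from less RNA per cell, here or in any result below.

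Over the 16354 genes tested, edgeR's quasi-likelihood test on the counts of all 18 libraries called 0 genes (0.0%) at an adjusted p under 0.05. At an unadjusted p under 0.05 it had 1263 genes (7.72%), 681 with higher (4.16%) and 582 with lower values (3.56%) under L-Kyn. The same test on the 5 libraries alone called 37 of 13481 genes (0.274%), 29 higher (0.215%) and 8 lower (0.0593%), and DESeq2 on all libraries called 54 of 10524 (0.513%), 40 higher (0.38%) and 14 lower (0.133%). Of these, 21 genes were called by both, all with the same sign. No gene below therefore passed the main test, and calls by the other fits are given by name of the fit. Each SE below was derived as the absolute log2 fold change divided by the square root of edgeR's F statistic. Across all genes tested the median log2 fold change was -0.01, with 49.5% of the fold changes positive and 50.4% negative. The gene lists below were chosen with earlier results of these data known. Their shares beside those of all genes are therefore descriptions and no test.

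The genes with the smallest p included transporters, sugar transferases and polyubiquitin on the higher side and a histone deacetylase and ribosomal proteins on the lower side. ABCC3 (AT3G13080), a vacuolar ABC transporter of conjugated compounds, was at 6.77 and 9.94 CPM in the mock libraries and 55.7, 62.7 and 54.2 CPM in the L-Kyn libraries (log2 fold change 2.76 ± 0.57 SE, edgeR adjusted p = 0.172). The L-Kyn libraries lay close together and well above both mock libraries, and the 5-library fit (edgeR adjusted p = 0.00752) and DESeq2 (adjusted p = 6.42e-04) called it. UGT74E2 (AT1G05680), which glucosylates the auxin precursor indole-3-butyric acid, was at 117 and 105 CPM in the mock libraries and 459, 829.6 and 521 CPM in the L-Kyn libraries (log2 fold change 2.44 ± 0.56 SE, edgeR adjusted p = 0.280, and 0.0146 in the 5-library fit). The lowest L-Kyn library exceeded the highest mock library several times over. DREB2C (AT2G40340), a stress transcription factor, was at 7.39 and 10.4 CPM in the mock libraries and 67.7, 68.1 and 54.2 CPM in the L-Kyn libraries (log2 fold change 2.81 ± 0.61 SE, edgeR adjusted p = 0.194), and both other fits called it (edgeR adjusted p = 0.00752, DESeq2 adjusted p = 0.00175). Polyubiquitin UBQ10 (AT4G05320) was at 626 and 705 CPM in the mock libraries and 3073, 2546 and 2053 CPM in the L-Kyn libraries (log2 fold change 1.94 ± 0.36 SE, edgeR adjusted p = 0.153, and 0.0247 in the 5-library fit). Its near copy UBQ14 (AT4G02890) was at 498 and 539 CPM in the mock libraries and 1761, 1625 and 1366 CPM in the L-Kyn libraries (log2 fold change 1.61 ± 0.34 SE, edgeR adjusted p = 0.191, and 0.0454 in the 5-library fit), and the pair may share reads, which makes the value of each uncertain. In both genes every L-Kyn library was above every mock library.

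EMB1030 (AT5G22800), an alanyl-tRNA synthetase, was at 2.46 and 3.61 CPM in the mock libraries and 69.6, 67.3 and 41.2 CPM in the L-Kyn libraries (log2 fold change 4.24 ± 0.97 SE, edgeR adjusted p = 0.280, and 0.00337 in the 5-library fit). Another locus annotated as alanine-tRNA ligase, AT1G49930, was chosen after its values were seen. It stood at 1.23 and 0.452 CPM in the mock libraries and 48.8, 22.9 and 15.3 CPM in the L-Kyn libraries, an L-Kyn over mock ratio of counts per gene read of 43.8 (95% exact interval 14.8 to 214), and may share reads with EMB1030. Both were low with mock and well above it in each L-Kyn library. Most loci annotated as tRNA synthetase or ligase, a family chosen after the values were seen, went the other way. Of 51 tested, 38 had negative values (50.4% of all genes), with a median log2 fold change of -0.28. In 20 of the 51 every L-Kyn library was below both mock libraries (19.0% of all genes tested), and in 6 every one was above (16.4%). The 4 other higher genes of the rule for named genes were CSLE1 (a cellulose synthase-like gene), PIP1;4 (an aquaporin), UGT85A1 (a glucosyltransferase) and ABCB4 (an auxin transporter), with log2 fold changes of 1.74, 1.55, 2.17 and 1.80 and DESeq2 adjusted p of 0.00485, 0.00619, 0.00706 and 0.00673. UGT85A1 varied most within the L-Kyn group, from 48.1 CPM in replicate 1 to 221 CPM in replicate 2.

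Among the lower genes, HDT4 (AT2G27840), a plant-specific histone deacetylase, was at 168 and 210.4 CPM in the mock libraries and 52.2, 48.2 and 55.1 CPM in the L-Kyn libraries (log2 fold change -1.87 ± 0.40 SE, edgeR adjusted p = 0.191, and 0.0146 in the 5-library fit). The groups were far apart and the L-Kyn libraries nearly equal. TRM10 (AT4G11780), named after a motif that binds the microtubule protein TON1, was at 10.5 and 13.1 CPM in the mock libraries and 2.63, 2.29 and 1.92 CPM in the L-Kyn libraries (log2 fold change -2.32 ± 0.50 SE, edgeR adjusted p = 0.191, DESeq2 adjusted p = 0.0293). GASA4 (AT5G15230), a small peptide gene induced by gibberellin, was at 843 and 754 CPM in the mock libraries and 377, 277 and 336 CPM in the L-Kyn libraries (log2 fold change -1.27 ± 0.32 SE, edgeR adjusted p = 0.344, DESeq2 adjusted p = 0.0360). In each of these the highest L-Kyn library was below the lowest mock library. NPY5 (AT4G37590), a gene of auxin-dependent organ formation, was at 101 and 72.7 CPM in the mock libraries and 39.7, 39.00 and 40.8 CPM in the L-Kyn libraries (log2 fold change -1.12 ± 0.29 SE, edgeR adjusted p = 0.400). The others were the cyclophilin ROC3 (-1.17), the GTPase RABA1d (-1.56), the ribosomal protein genes BBC1 (-1.07) and RPL18AA (-0.97), sks15 of the SKU5 family (-1.53) and the co-chaperone-like TPR3 (-1.26), each with its log2 fold change, of which DESeq2 called ROC3, RABA1d and BBC1 (adjusted p of 0.00619, 0.0381 and 0.0146). The rule asked of all these genes that the groups not overlap, so the gap between the groups is no result for them.

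**Figure D1:**
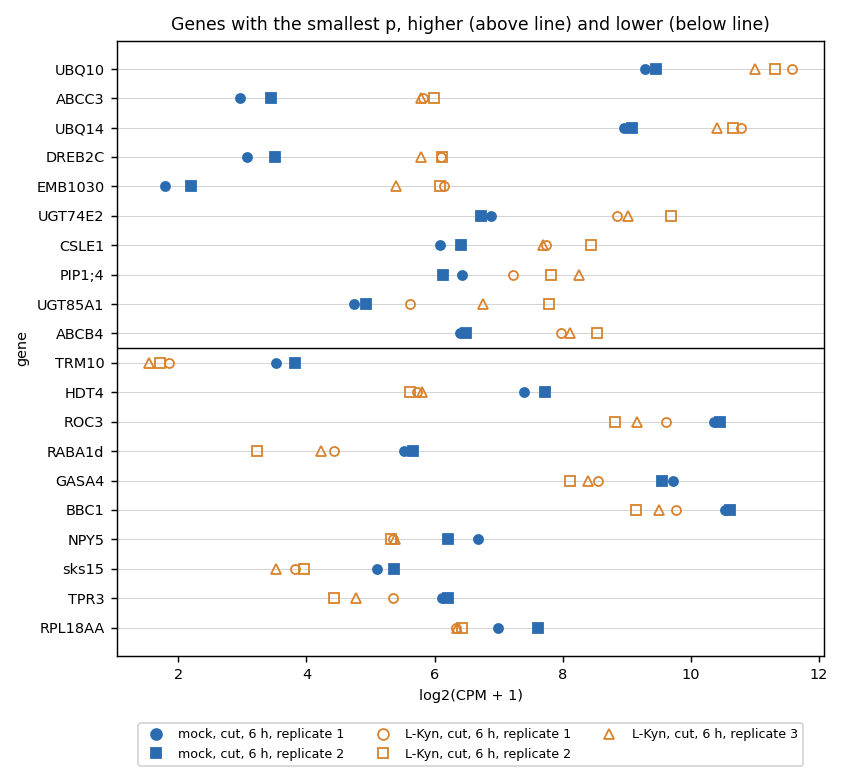
Level of the 10 genes with the smallest p on the higher side and the 10 on the lower side in each cut library, as log2(CPM + 1); each symbol is a library, filled for mock and open for L-Kyn. The rule that chose them required that the groups not overlap, and UGT85A1 shows the widest spread among the L-Kyn libraries.

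RNA of the enzyme that L-Kyn blocks was at a lower level in L-Kyn tips, without a call. TAA1 (AT1G70560) was at 10.5 and 11.7 CPM in the mock libraries and 4.78, 3.06 and 6.23 CPM in the L-Kyn libraries (log2 fold change -1.20 ± 0.49 SE, edgeR adjusted p = 0.578). Each L-Kyn library lay below both mock libraries, at low counts. TAR2, its relative, did not pass the filter on low counts and was at 3.69 and 1.35 CPM with mock and 3.11, 0.765 and 0 CPM with L-Kyn. Of the YUCCA genes, YUC8 (AT4G28720) was at 4.31 and 2.26 CPM in the mock libraries and 2.39, 14.5 and 12.5 CPM in the L-Kyn libraries (log2 fold change 1.53 ± 0.84 SE, edgeR adjusted p = 0.702). Its L-Kyn replicate 1 lay within the mock range and replicates 2 and 3 well above it. YUC9 was at 0.616 and 2.26 CPM with mock and 1.67, 1.53 and 2.88 CPM with L-Kyn (log2 fold change 0.41 ± 0.98 SE). YUC3 and YUC5, at most 2.398 CPM in all 5 libraries, were too low to compare. Of 14 synthesis genes written down, 6 were tested, of which 4 had positive values, TAA1 a negative one and YUC7 no count in any of the 5 libraries. The median log2 fold change was 0.97 with YUC7 included at 0, and 1.53 without YUC7. It rests on few counts, as YUC3 and YUC6 had 1 count each in the mock group, against 9 and 7 with L-Kyn. In the 5-library fit only 2 synthesis genes were tested, 1 positive and 1 negative, with a median of 0.16. In the fit of all libraries, leaving out mock replicate 1 gave 0.59 with YUC7 included. The 9 genes of tryptophan synthesis were all tested and split 4 positive to 5 negative with a median of -0.08, and none was under an unadjusted p of 0.05.

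The Aux/IAA and GH3 genes tested mostly had lower values with L-Kyn, while few genes of other auxin-induced families could be tested. The Aux/IAA repressors had 17 of 28 genes tested, of which 14 had negative and 3 positive log2 fold changes, with a median of -0.52 (-0.01 over all genes), and of -0.61 to -0.33 when each of the 5 libraries was left out in turn. For 6 of the 17 every L-Kyn library was below both mock libraries, against 19.0% of all genes tested, and for 1 every one was above, against 16.4%. IAA4 (AT5G43700), a repressor of the auxin-inducible kind, was at 24.01 and 18.97 CPM in the mock libraries and 9.57, 6.12 and 2.398 CPM in the L-Kyn libraries (log2 fold change -1.76 ± 0.56 SE, edgeR adjusted p = 0.495). All L-Kyn libraries lay below both mock libraries, with replicate 3 lowest. IAA8 (AT2G22670) was at 105 and 102 CPM in the mock libraries and 56.9, 74.2 and 65.7 CPM in the L-Kyn libraries (log2 fold change -0.66 ± 0.30 SE, edgeR adjusted p = 0.630). IAA1 (AT4G14560), an early auxin-induced gene, was at 16.01 and 11.3 CPM in the mock libraries and 3.35, 9.94 and 0 CPM in the L-Kyn libraries (log2 fold change -1.77 ± 0.82 SE, edgeR adjusted p = 0.637). For IAA8 and IAA1 too the groups did not overlap, and IAA1 had no count in L-Kyn replicate 3. IAA19 was at 4.93 and 4.97 CPM with mock and 1.67, 2.29 and 1.92 CPM with L-Kyn, and IAA2 at 22.2 and 31.2 CPM with mock and 14.6, 29.8 and 12.9 CPM with L-Kyn. IAA2 overlapped between the groups through L-Kyn replicate 2, and IAA28 was the member with the highest log2 fold change, 0.92 ± 0.65 SE. The 3 Aux/IAA genes with an unadjusted p under 0.05 were IAA4, IAA8 and IAA1, all lower, and none was called in the 5-library fit or by DESeq2. Summed over the 27 family members in the table the level was 955 and 916 CPM in the mock libraries and 759, 981 and 701 CPM in the L-Kyn libraries, and L-Kyn replicate 2 was the highest library of all.

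GH3 enzymes join auxin to amino acids and so take it out of use. GH3.5 (AT4G27260) was at 3.69 and 4.06 CPM in the mock libraries and 0.478, 0 and 0 CPM in the L-Kyn libraries, with 2 counts in the L-Kyn group and 15 in the mock group, a mock over L-Kyn ratio of 15.2 per read (95% exact interval 3.53 to 137), and an edgeR adjusted p of 0.495. GH3.3 did not pass the filter and stood at 3.69 and 1.35 CPM with mock and 0.957, 1.53 and 0.4796 CPM with L-Kyn. All 3 GH3 genes tested had negative values. Of 17 SAUR genes, a family of small proteins induced early by auxin, 2 were tested and both had positive values (median 0.32), and DESeq2 gave 6 positive and 5 negative values among 11. Of 11 other auxin-induced genes 1 was tested, at a log2 fold change of -0.05, and DESeq2 gave 2 positive and 2 negative values among 4. The panel's LBD16 and LBD29 were not analysed here, and IAA5 was at or below 1.85 CPM in each library.

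Receptors and response factors, which act on the signal and are less known as its targets, showed no common direction. Of 20 tested, 9 had positive and 11 negative values with a median of -0.01 (-0.07 with a gene at 0 counts taken at its bound), and none had an unadjusted p under 0.05. TIR1 (AT3G62980), the receptor, was at 41.9 and 50.1 CPM in the mock libraries and 43.8, 39.00 and 54.2 CPM in the L-Kyn libraries, and the groups overlapped. MP (AT1G19850), the response factor of root founding, was at 54.2 and 44.3 CPM in the mock libraries and 55.98, 64.2 and 42.7 CPM in the L-Kyn libraries, also with overlap.

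Carriers that move auxin between cells differed from each other. ABCB4 (AT2G47000) was at 83.1 and 88.5 CPM in the mock libraries and 251, 372 and 275 CPM in the L-Kyn libraries (log2 fold change 1.80 ± 0.43 SE, edgeR adjusted p = 0.285). Each L-Kyn library was well above mock, and the 5-library fit (edgeR adjusted p = 0.0343) and DESeq2 (adjusted p = 0.00673) called it. The annotation places it over a pair of other loci, whose reads may be counted with it. PILS3 (AT1G76520), of the PIN-likes family in the endoplasmic reticulum, was at 35.7 and 19.4 CPM in the mock libraries and 102, 52.8 and 70.02 CPM in the L-Kyn libraries (log2 fold change 1.46 ± 0.50 SE, edgeR adjusted p = 0.495). LAX2 (AT2G21050), an influx carrier, was at 17.2 and 17.61 CPM in the mock libraries and 6.94, 5.35 and 7.19 CPM in the L-Kyn libraries (log2 fold change -1.39 ± 0.66 SE, edgeR adjusted p = 0.638). AUX1 (AT2G38120), another influx carrier, was at 81.9 and 81.3 CPM in the mock libraries and 99.5, 74.2 and 94.5 CPM in the L-Kyn libraries (log2 fold change 0.14 ± 0.31 SE, edgeR adjusted p = 0.956), and the groups overlapped. Of the 17 carriers and kinases of transport tested, 8 had positive and 9 negative values with a median of -0.08.

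**Figure D2:**
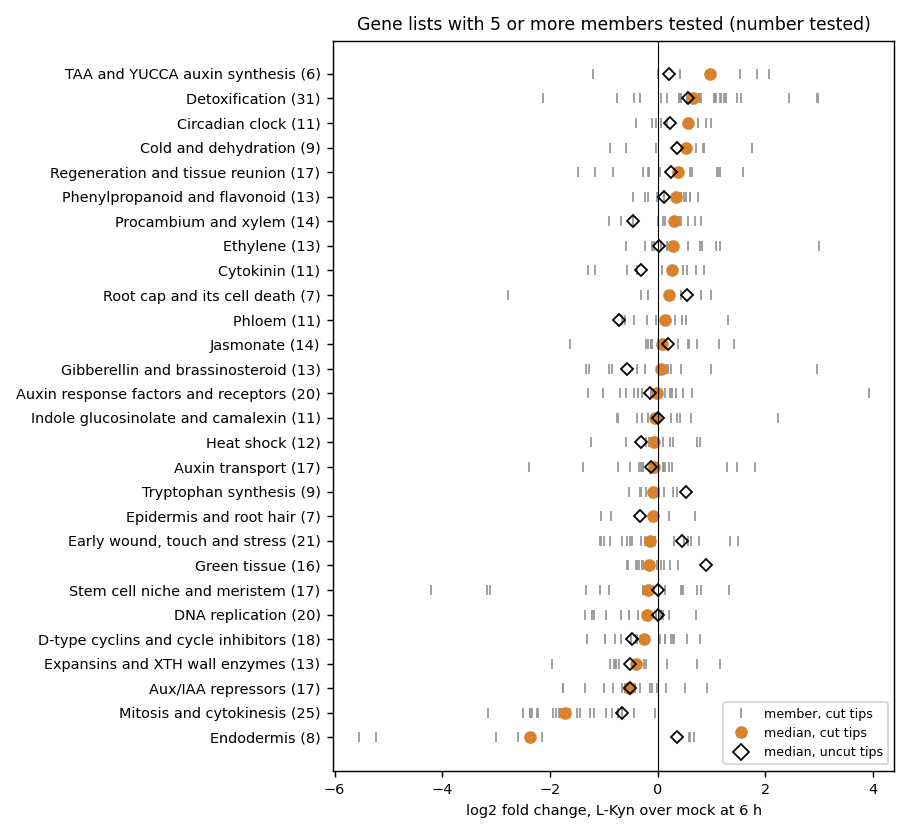
Log2 fold change of L-Kyn over mock at 6 h for the members of each gene list in cut tips (ticks), with the median in cut tips (filled circles) and in uncut tips (open diamonds); numbers tested stand after each name. The mitosis list has a median of -1.72 in cut tips and -0.66 in uncut tips, and the endodermis median of -2.37 is 1.502 without mock replicate 2.

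Genes of mitosis and cytokinesis had lower values with L-Kyn throughout. Of 26 members 25 passed the filter, and all 25 had negative log2 fold changes, with a median of -1.72. In 23 of the 25 every L-Kyn library lay below both mock libraries (19.0% of all genes tested), and 14 had an unadjusted p under 0.05 on the lower side (3.56% of all genes). None was called in the fit of all libraries or by DESeq2, and 1, CYCA1;1, in the 5-library fit (0.0593% of all genes on the lower side). Without L-Kyn replicate 1, 25 of 25 stayed negative (median -1.81) and without mock replicate 2, 24 of 25 (median -1.68). In the 5-library fit without L-Kyn replicate 1, 8 of 17 members tested were called lower, beside 896 lower and 1138 higher calls among 12824 genes. Without L-Kyn replicate 2 that fit called 1 of 20 members lower, beside 5 lower calls among 13280 genes. Without L-Kyn replicate 3 it called 0 of 18, beside 0 lower calls among 12914 genes, so no member could stand out there. Without mock replicate 1 or 2, which leaves 1 mock library, the medians were -1.55 and -1.67.

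CYCA1;1 (AT1G44110), a cyclin of the passage from DNA synthesis into mitosis, was at 23.4 and 24.4 CPM in the mock libraries and 4.31, 5.35 and 4.32 CPM in the L-Kyn libraries (log2 fold change -2.37 ± 0.79 SE, edgeR adjusted p = 0.495, and 0.0177 in the 5-library fit). The libraries of each group were close together and the groups far apart. CYCB1;2 (AT5G06150), a mitotic B-type cyclin, was at 16.6 and 18.97 CPM in the mock libraries and 5.26, 0.765 and 2.88 CPM in the L-Kyn libraries (log2 fold change -2.37 ± 0.79 SE, edgeR adjusted p = 0.495). Its relative CYCB1;3 (AT3G11520) was at 12.3 and 13.1 CPM in the mock libraries and 3.59, 0.765 and 2.88 CPM in the L-Kyn libraries (log2 fold change -2.23 ± 0.70 SE, edgeR adjusted p = 0.495). In both cyclins L-Kyn replicate 2 was lowest, with a level under its own floor. CYCB2;2 (AT4G35620), another B-type cyclin, was at 11.1 and 10.8 CPM in the mock libraries and 1.91, 1.53 and 3.36 CPM in the L-Kyn libraries (log2 fold change -2.24 ± 0.71 SE, edgeR adjusted p = 0.495). CYCB1;1 (AT4G37490), the cyclin often used to mark dividing cells, was at 10.5 and 3.61 CPM in the mock libraries and 2.15, 0 and 0.4796 CPM in the L-Kyn libraries (log2 fold change -2.51 ± 1.03 SE, edgeR adjusted p = 0.578). Its mock libraries were far apart, and the groups still did not overlap. CDC20.1 (AT4G33270), an activator of the complex that degrades cyclins, had 15 counts with mock and 3 with L-Kyn, a mock over L-Kyn ratio of 10.1 per read (95% exact interval 2.87 to 54.6).

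Genes of the division machinery on this list were lower too. TPX2 (AT1G03780), a spindle assembly protein, was at 11.1 and 9.03 CPM in the mock libraries and 1.44, 3.06 and 1.92 CPM in the L-Kyn libraries (log2 fold change -2.33 ± 0.71 SE, edgeR adjusted p = 0.489). KN (AT1G08560), the syntaxin KNOLLE that fuses vesicles into the cell plate, was at 23.4 and 26.2 CPM in the mock libraries and 10.05, 5.35 and 3.36 CPM in the L-Kyn libraries (log2 fold change -1.90 ± 0.65 SE, edgeR adjusted p = 0.495). MAD2 (AT3G25980), of the spindle checkpoint, was at 28.3 and 33.4 CPM in the mock libraries and 14.4, 10.7 and 8.15 CPM in the L-Kyn libraries (log2 fold change -1.45 ± 0.57 SE, edgeR adjusted p = 0.563). In all 3 the groups did not overlap. TPX2, KN and MAD2 each overlap an annotated neighbour, so part of their reads may belong to it. The kinases of the CDKB class are plant-specific and act around mitosis. CDKB1;1 (AT3G54180) was at 35.7 and 46.5 CPM in the mock libraries and 50.5, 29.8 and 37.4 CPM in the L-Kyn libraries (log2 fold change -0.06 ± 0.33 SE, edgeR adjusted p = 0.985), with overlapping groups. CDKB2;1 (AT1G76540) was at 17.2 and 19.4 CPM in the mock libraries and 10.05, 13.8 and 11.5 CPM in the L-Kyn libraries (log2 fold change -0.66 ± 0.44 SE, edgeR adjusted p = 0.774).

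**Figure D3:**
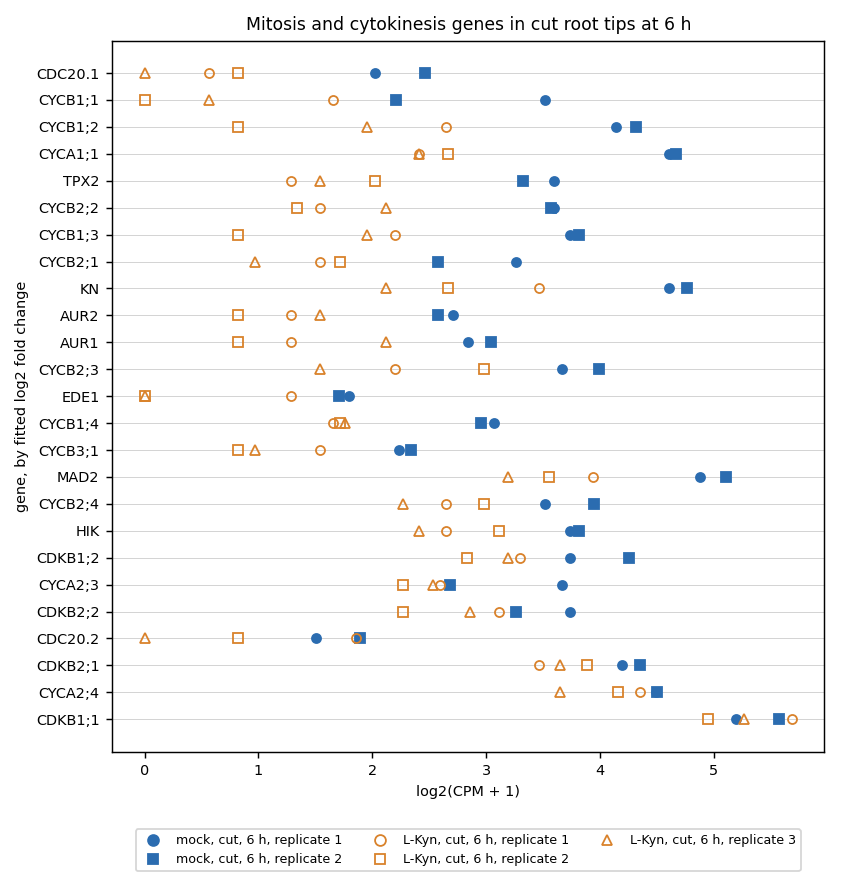
Level of the 25 mitosis and cytokinesis genes tested, as log2(CPM + 1), in each cut library at 6 h, ordered by fitted log2 fold change; filled symbols are mock and open symbols L-Kyn. In 23 genes the open symbols all lie to the left of the filled ones, and the exceptions are CDC20.2 and CDKB1;1.

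The promoters of the 4 cyclins with the smallest p whose transcripts overlap no other gene are shown because the mitotic core element AACGG, which MYB3R factors are known to bind in genes of this phase, recurs in them. Each run is the 250 bases before the annotated gene start in RefSeq TAIR10.1, on the gene's own strand, with AACGG and its reverse complement CCGTT in capitals. The count table was made on TAIR10 and holds no coordinates, so the windows come from the reference annotation alone. They are chr1:16777353-16777602 (minus strand), chr5:1861704-1861953 (minus strand), chr3:3627274-3627523 (minus strand) and chr4:16901346-16901595 (plus strand).
CYCA1;1: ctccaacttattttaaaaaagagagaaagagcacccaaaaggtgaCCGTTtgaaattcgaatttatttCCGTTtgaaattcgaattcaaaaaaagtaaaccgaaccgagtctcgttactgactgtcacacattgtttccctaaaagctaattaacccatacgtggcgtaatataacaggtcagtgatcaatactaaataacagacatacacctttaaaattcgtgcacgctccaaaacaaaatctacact
CYCB1;2: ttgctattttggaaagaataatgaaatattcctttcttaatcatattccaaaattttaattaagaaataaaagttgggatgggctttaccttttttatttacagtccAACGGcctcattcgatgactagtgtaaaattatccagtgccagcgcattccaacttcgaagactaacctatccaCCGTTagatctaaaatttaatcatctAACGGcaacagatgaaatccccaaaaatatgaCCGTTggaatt
CYCB1;3: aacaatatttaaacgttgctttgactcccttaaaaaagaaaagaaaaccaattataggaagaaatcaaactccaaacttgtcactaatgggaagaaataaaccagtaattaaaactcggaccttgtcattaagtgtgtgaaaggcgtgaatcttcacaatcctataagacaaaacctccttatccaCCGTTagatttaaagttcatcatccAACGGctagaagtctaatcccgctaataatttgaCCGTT
CYCB2;2: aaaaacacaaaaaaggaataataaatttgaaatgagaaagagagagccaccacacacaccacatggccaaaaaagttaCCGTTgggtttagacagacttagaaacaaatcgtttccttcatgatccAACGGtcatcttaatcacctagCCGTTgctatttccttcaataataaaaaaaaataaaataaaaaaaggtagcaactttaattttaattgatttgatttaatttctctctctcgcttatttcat
The element occurs 2 times in the window of CYCA1;1, 4 times in CYCB1;2, and 3 times each in CYCB1;3 and CYCB2;2. In CYCB1;2 and CYCB1;3 the match nearest the gene begins 11 and 5 bases before the start. Of the 25 promoters of the mitosis list 14 hold AACGG on either strand (56.0%), against 3606 of 16162 promoters of tested genes (22.3%), and 8 hold it at least 2 times (32.0% against 4.16%). Of the 20 DNA replication promoters, 5 hold it (25.0%), and 3 hold it at least 2 times (15.0%). The motif was chosen with the values known, and a match says nothing on whether a factor binds there.

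DNA replication genes act in the phase before mitosis and split in direction. All 20 were tested, with 14 negative and 6 positive values and a median of -0.20, and of -0.03 without mock replicate 2. In 7 of the 20 every L-Kyn library lay below both mock libraries (19.0% of all genes tested), and in 1 every one lay above (16.4%). MCM10 (AT2G20980), of the replication fork, was at 19.7 and 14.00 CPM in the mock libraries and 5.502, 9.94 and 6.71 CPM in the L-Kyn libraries (log2 fold change -1.23 ± 0.53 SE, edgeR adjusted p = 0.602). RNR1 (AT2G21790), a ribonucleotide reductase subunit, was at 52.9 and 60.5 CPM in the mock libraries and 87.3, 102 and 89.7 CPM in the L-Kyn libraries (log2 fold change 0.71 ± 0.36 SE, edgeR adjusted p = 0.663). MCM10 was lower and RNR1 higher in every L-Kyn library. PCNA1 (AT1G07370), the sliding clamp of DNA polymerase, was at 28.3 and 41.1 CPM in the mock libraries and 25.4, 25.2 and 30.7 CPM in the L-Kyn libraries, and the groups overlapped. The summed level of the list was 521 and 617 CPM in the mock libraries and 496, 523 and 566 CPM in the L-Kyn libraries, also with overlap, while that of the mitosis list was 324 and 342 CPM in the mock libraries and 174, 135 and 127 CPM in the L-Kyn libraries. Uncut tips had a summed mitosis level of 457, 567 and 646 CPM in mock uncut tips and 395 and 525 CPM in L-Kyn uncut tips.

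**Figure D4:**
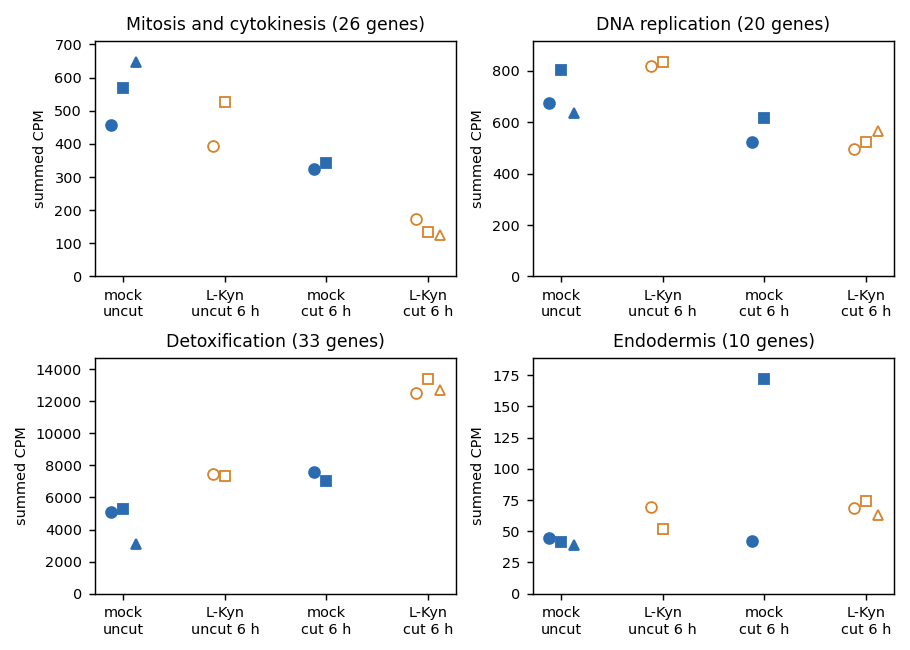
Summed CPM of 4 gene lists in each library, for mock uncut, L-Kyn uncut 6 h, mock cut 6 h and L-Kyn cut 6 h tips; circles, squares and triangles are replicates 1, 2 and 3. Mitosis genes sum to 127 to 174 CPM in L-Kyn cut tips and at least 324 CPM in every other library, whereas DNA replication genes overlap between mock and L-Kyn cut tips.

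Regulators of the cycle outside mitosis were mixed. The D-type cyclins and inhibitors had 18 of 22 genes tested, 8 positive and 10 negative, with a median of -0.26, and of -0.10 without L-Kyn replicate 1. SMR1 (AT3G10525), an inhibitor of the SIAMESE family, was at 87.4 and 82.2 CPM in the mock libraries and 46.4, 23.7 and 31.2 CPM in the L-Kyn libraries (log2 fold change -1.31 ± 0.50 SE, edgeR adjusted p = 0.549), and SIM (AT5G04470) of the same family at 46.2 and 33.4 CPM in the mock libraries and 20.8, 10.7 and 27.8 CPM in the L-Kyn libraries (log2 fold change -0.98 ± 0.48 SE, edgeR adjusted p = 0.652). Both inhibitors were below mock in all L-Kyn libraries. NAC044 (AT3G01600), a transcription factor known to hold cells before mitosis after DNA damage, was chosen after its values were seen and stood at 3.08 and 3.16 CPM in the mock libraries and 53.1, 23.7 and 19.7 CPM in the L-Kyn libraries (log2 fold change 3.37 ± 1.16 SE, edgeR adjusted p = 0.495, and 0.0343 in the 5-library fit). Its lowest L-Kyn library exceeded both mock libraries several times.

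Genes of detoxification, which encode enzymes and pumps that tag and move foreign compounds, were mostly higher. Of 33 members 31 were tested, 27 with positive and 4 with negative values and a median of 0.65. In 20 of the 31 every L-Kyn library was above both mock libraries (16.4% of all genes tested), and 11 had an unadjusted p under 0.05 on the higher side (4.16% of all genes). As the list was chosen with earlier results of these data known, part of this excess may come from that choice. The 5-library fit called 2 of 29, UGT74E2 and DTX1 (0.215% of all genes on the higher side), and DESeq2 called UGT74E2 and GSTU19 (0.38% of all genes on the higher side). Without L-Kyn replicate 1, 27 of 31 were positive (median 0.77), and without mock replicate 2, 26 of 32 (median 0.59). Summed over the list the level was 7574 and 7025 CPM in the mock libraries and 12481, 13361 and 12699 CPM in the L-Kyn libraries, without overlap.

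GSTU19 (AT1G78380), a glutathione transferase of the tau class, was at 1359 and 1362 CPM in the mock libraries and 3641, 2839.9 and 2640.0 CPM in the L-Kyn libraries (log2 fold change 1.16 ± 0.31 SE, edgeR adjusted p = 0.405, DESeq2 adjusted p = 0.0176). GSTU24 (AT1G17170) of the same class was at 257 and 241 CPM in the mock libraries and 474, 378 and 421 CPM in the L-Kyn libraries (log2 fold change 0.77 ± 0.30 SE, edgeR adjusted p = 0.555), and GSTU25 (AT1G17180) at 485 and 389 CPM in the mock libraries and 825, 623 and 841 CPM in the L-Kyn libraries (log2 fold change 0.81 ± 0.37 SE, edgeR adjusted p = 0.637). In all 3 the L-Kyn libraries were above both mock libraries, though near-identical members of this family may share reads. DTX1 (AT2G04040), a multidrug efflux carrier, was at 3.69 and 1.81 CPM in the mock libraries and 21.8, 20.6 and 20.6 CPM in the L-Kyn libraries (log2 fold change 2.96 ± 0.99 SE, edgeR adjusted p = 0.495, and 0.0177 in the 5-library fit). A further efflux gene, AT2G04050, was written into the list under a symbol that the reference does not give it, and so is in none of the counts above. It was at 0.616 and 0.452 CPM in the mock libraries and 14.1, 12.2 and 11.5 CPM in the L-Kyn libraries, a ratio of 24.4 per read (95% exact interval 6.59 to 205), and its adjusted p was 0.0128 in the 5-library edgeR fit. Both carriers had nearly equal levels in the L-Kyn libraries. Of 28 tested genes annotated as MATE efflux, a family chosen after the values were seen, the 5-library fit called 2 (0.274% of all genes). DESeq2 called 0 of them (0.513% of all genes). UGT73B5 (AT2G15480), a glucosyltransferase of stress and flavonols, was at 377 and 368 CPM in the mock libraries and 586, 1169 and 859.9 CPM in the L-Kyn libraries (log2 fold change 1.23 ± 0.41 SE, edgeR adjusted p = 0.495). UGT75B1 (AT1G05560), another glucosyltransferase, was at 34.5 and 42.5 CPM in the mock libraries and 72.2, 158 and 94.5 CPM in the L-Kyn libraries (log2 fold change 1.48 ± 0.43 SE, edgeR adjusted p = 0.471). GSTF7 (AT1G02920), a phi-class enzyme of defence, went against the list, at 4.93 and 6.77 CPM in the mock libraries and 0.478, 0.765 and 2.88 CPM in the L-Kyn libraries (log2 fold change -2.13 ± 0.99 SE, edgeR adjusted p = 0.637).

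For comparison with the cyclins, the promoter of DTX1 is shown with the TGA factor element TGACG, or CGTCA on the other strand, in capitals (chr2:1336551-1336800, minus strand, TAIR10.1, 250 bases). That of IAA1 is shown with the auxin response elements TGTCTC and TGTCGG, or their reverse complements GAGACA and CCGACA, in capitals (chr4:8360746-8360995, plus strand). In each window only the motifs named for that gene are in capitals. The IAA1 window also holds AACGG, its reverse complement CCGTT, and CGTCA, all left in lower case.
DTX1: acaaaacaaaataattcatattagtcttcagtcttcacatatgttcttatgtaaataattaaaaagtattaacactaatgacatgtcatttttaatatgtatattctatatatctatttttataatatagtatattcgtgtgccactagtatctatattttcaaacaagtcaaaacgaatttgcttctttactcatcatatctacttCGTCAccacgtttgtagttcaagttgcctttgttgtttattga
IAA1: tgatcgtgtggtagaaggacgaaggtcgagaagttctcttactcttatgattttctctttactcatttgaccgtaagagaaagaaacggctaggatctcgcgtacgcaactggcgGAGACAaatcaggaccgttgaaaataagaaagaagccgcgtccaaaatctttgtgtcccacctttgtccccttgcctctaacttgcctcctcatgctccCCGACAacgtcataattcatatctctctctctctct
TGACG was found in 16 of 31 detoxification promoters (51.6%) and in 19.3% of the 16162 promoters of tested genes, and was chosen with the values known. In the promoters of the 17 Aux/IAA genes tested, TGTCTC was found in 3 (against 10.4% of all promoters), TGTCGG in 4 (against 4.69%) and the G-box CACGTG in 2 (against 7.33%). The same 17 promoters held AACGG in 5 (29.4%, against 22.3%) and TGACG in 1 (5.88%, against 19.3%). All motifs were read on both strands, and matches are descriptions of the letters in the window.

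**Figure D5:**
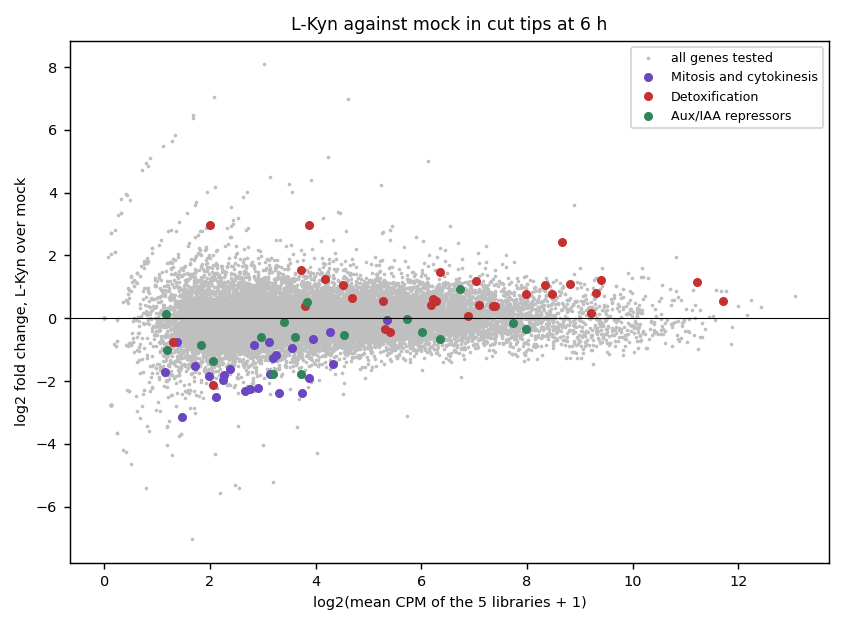
Fitted log2 fold change of L-Kyn over mock in cut tips against the mean level of the 5 libraries, as log2(mean CPM + 1), for the 16354 genes tested (grey) and the members of 3 lists (coloured). All mitosis genes lie below 0 and at low to middle levels, while 27 of 31 detoxification genes lie above 0, at low to high levels.

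Genes of regeneration and tissue reunion had 17 of 21 members tested, 11 positive and 6 negative, with a median of 0.38, and none was called. Without L-Kyn replicate 1 the median was 0.04, with 9 positive and 8 negative. TMO6 (AT5G60200), a DOF transcription factor of vascular tissue, was at 42.5 and 36.1 CPM in the mock libraries and 76.3, 92.5 and 92.6 CPM in the L-Kyn libraries (log2 fold change 1.15 ± 0.44 SE, edgeR adjusted p = 0.544). DOF6 (AT3G45610) of the same class was at 3.69 and 3.16 CPM in the mock libraries and 8.13, 15.3 and 8.63 CPM in the L-Kyn libraries (log2 fold change 1.59 ± 0.60 SE, edgeR adjusted p = 0.542), and HCA2 (AT5G62940) at 8.003 and 6.77 CPM in the mock libraries and 10.5, 28.3 and 10.1 CPM in the L-Kyn libraries (log2 fold change 1.09 ± 0.68 SE, edgeR adjusted p = 0.744). All L-Kyn libraries of the 3 genes were above mock, with HCA2 far higher in replicate 2 than in the others. WIND1 (AT1G78080), a factor that promotes callus at wounds, was at 62.2 and 56.9 CPM in the mock libraries and 28.2, 36.7 and 35.97 CPM in the L-Kyn libraries (log2 fold change -0.83 ± 0.38 SE, edgeR adjusted p = 0.635), below mock in every L-Kyn library. ERF115 (AT5G07310), the factor of stem cell replenishment after damage, was at 2.46 and 5.42 CPM in the mock libraries and 2.63, 5.35 and 2.398 CPM in the L-Kyn libraries (log2 fold change -0.27 ± 1.01 SE, edgeR adjusted p = 0.975), with overlap.

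Stem cell genes differed from each other. WOX5 (AT3G11260), a homeobox gene active in the quiescent centre, was at 6.16 and 4.52 CPM in the mock libraries and 0.478, 3.82 and 2.88 CPM in the L-Kyn libraries (log2 fold change -1.34 ± 0.99 SE, edgeR adjusted p = 0.810). Its L-Kyn values were all below mock but at few counts. PLT2 (AT1G51190) was at 4.93 and 4.06 CPM in the mock libraries and 1.67, 2.29 and 3.36 CPM in the L-Kyn libraries (log2 fold change -0.91 ± 0.89 SE, edgeR adjusted p = 0.869), while PLT1, with at most 1.53 CPM in any of the 5 libraries, was too low to compare. AIL6 (AT5G10510), of the same PLETHORA family, was at 78.2 and 77.7 CPM in the mock libraries and 132, 145 and 130.4 CPM in the L-Kyn libraries (log2 fold change 0.80 ± 0.36 SE, edgeR adjusted p = 0.633), higher in each L-Kyn library. SCR (AT3G54220) and SHR (AT4G37650), the factors of the ground tissue layers, had log2 fold changes of 0.48 ± 0.50 and 0.13 ± 0.39 SE with overlapping groups, and CYCD6;1, their target cyclin, did not pass the filter. Over the list 7 of 17 genes were positive and 10 negative (median -0.17, and 0.04 without L-Kyn replicate 1).

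In other hormone pathways single genes stood out. GA2OX2 (AT1G30040), which inactivates gibberellin, was at 9.23 and 7.68 CPM in the mock libraries and 69.9, 71.1 and 55.6 CPM in the L-Kyn libraries (log2 fold change 2.95 ± 0.88 SE, edgeR adjusted p = 0.478, and 0.00567 in the 5-library fit). Its L-Kyn libraries were several times above mock. GA20OX3 (AT5G07200), a synthesis enzyme, was at 14.2 and 21.7 CPM in the mock libraries and 8.85, 5.35 and 6.71 CPM in the L-Kyn libraries (log2 fold change -1.32 ± 0.63 SE, edgeR adjusted p = 0.638), and GID1B (AT3G63010), a gibberellin receptor, at 24.01 and 27.1 CPM in the mock libraries and 57.9, 48.9 and 46.04 CPM in the L-Kyn libraries (log2 fold change 1.00 ± 0.48 SE, edgeR adjusted p = 0.643). The synthesis gene was below and the receptor above mock in all L-Kyn libraries, and with GASA4 these are among 13 tested genes of gibberellin and brassinosteroid that split 7 positive to 6 negative (median 0.06). ACS7 (AT4G26200), an enzyme of ethylene synthesis, was at 3.69 and 1.81 CPM in the mock libraries and 10.5, 36.7 and 18.7 CPM in the L-Kyn libraries (log2 fold change 2.99 ± 0.93 SE, edgeR adjusted p = 0.495). ERS2 (AT1G04310), an ethylene receptor, was at 6.16 and 4.97 CPM in the mock libraries and 14.4, 13.00 and 9.59 CPM in the L-Kyn libraries (log2 fold change 1.16 ± 0.48 SE, edgeR adjusted p = 0.578). Both were above mock in every L-Kyn library, among 13 ethylene genes with a median of 0.28, and of 0.12 without L-Kyn replicate 2. Jasmonate (14 tested, median 0.07), cytokinin (11, 0.27, and 0.03 without L-Kyn replicate 2) and early wound and touch genes (21, -0.14) had no member with an unadjusted p under 0.05. The jasmonate median was -0.09 without mock replicate 1, and the early wound and touch median 0.13 without mock replicate 2.

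Wall and tissue genes gave few differences. Of 13 expansin and XTH genes, which loosen the cell wall, 10 had negative values (median -0.40, and -0.22 without L-Kyn replicate 1). EXPA15 (AT2G03090) was at 13.5 and 37.5 CPM in the mock libraries and 3.59, 5.35 and 11.5 CPM in the L-Kyn libraries (log2 fold change -1.95 ± 0.66 SE, edgeR adjusted p = 0.495), and XTH4 (AT2G06850) at 61.6 and 63.7 CPM in the mock libraries and 30.9, 34.4 and 44.1 CPM in the L-Kyn libraries (log2 fold change -0.78 ± 0.30 SE, edgeR adjusted p = 0.553). In both the L-Kyn libraries lay below mock, and for EXPA15 the mock libraries themselves were far apart. Phloem (11 tested, median 0.13, and -0.26 without L-Kyn replicate 2) and procambium and xylem genes (14, 0.30, and 0.09 without L-Kyn replicate 3) had no member with an unadjusted p under 0.05. The clock gene GI (AT1G22770) was at 27.7 and 26.2 CPM in the mock libraries and 42.6, 51.2 and 66.2 CPM in the L-Kyn libraries (log2 fold change 0.98 ± 0.33 SE, edgeR adjusted p = 0.495), above mock in all L-Kyn libraries, and the sampling hour is not given.

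Loci without a symbol held several of the smallest p, and they were chosen after their values were seen. AT3G28580, a P-loop ATPase, had the smallest adjusted p of the comparison (0.0689 in edgeR, 0.00814 in the 5-library fit). It stood at 0 and 0.452 CPM in the mock libraries and 32.3, 62.7 and 21.1 CPM in the L-Kyn libraries, with 1 count with mock and 261 with L-Kyn, a ratio of 129 per read (95% exact interval 22.9 to 5107). AT2G18193 of the same annotation was at 65.9 and 58.3 CPM in the mock libraries and 742, 969 and 539.5 CPM in the L-Kyn libraries (log2 fold change 3.59 ± 0.73 SE, edgeR adjusted p = 0.172, and 0.00337 in the 5-library fit). Both ATPase loci were far above mock in each L-Kyn library. AT3G46280, a kinase-like protein, was at 29.6 and 27.5 CPM in the mock libraries and 120.3, 229 and 105 CPM in the L-Kyn libraries (fitted ratio 5.28, edgeR adjusted p = 0.153, and 0.0322 in the 5-library fit). AT5G62340, an inhibitor of invertase or pectin methylesterase, was at 107 and 117 CPM in the mock libraries and 16.7, 6.12 and 13.9 CPM in the L-Kyn libraries (log2 fold change -3.13 ± 0.60 SE, edgeR adjusted p = 0.153, and 0.00567 in the 5-library fit). It was lower in all L-Kyn libraries. AT5G13210, an uncharacterized conserved protein, was at 4.31 and 2.71 CPM in the mock libraries and 136, 110.1 and 91.6 CPM in the L-Kyn libraries and had the smallest adjusted p of the 5-library edgeR fit, 9.48e-04.

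Uncut tips given L-Kyn for 6 h were set against uncut mock tips to see which values also differed without a cut. The groups share no library with those above. Hours and drug cannot be told apart in that comparison, as uncut mock tips carry no time, and the title of L-Kyn uncut replicate 1 says uncut while its source field says cut. EdgeR called 0 of 16354 genes (0.0%) with 1393 at an unadjusted p under 0.05 (8.52%; 3.38% higher and 5.14% lower), and DESeq2 called 56 of 17803 (0.315%; 0.18% higher and 0.135% lower). Genes of green tissue moved with these groups, with positive values for 16 of 16 tested (median 0.89) and a summed level of 422, 198 and 104 CPM in mock uncut tips and 643 and 369 CPM in L-Kyn uncut tips, and their part in the values below was not tested. The ABC transporters and EMB1030 were higher with L-Kyn there as well. ABCC3 was at 26.7, 36.5 and 20.3 CPM in mock uncut tips and 104 and 179 CPM in L-Kyn uncut tips (log2 fold change 2.35, edgeR unadjusted p = 6.08e-05). EMB1030 was at 6.97, 4.15 and 3.87 CPM in mock uncut tips and 96.5 and 163 CPM in L-Kyn uncut tips (log2 fold change 4.67, edgeR unadjusted p = 7.99e-06). ABCB4 was at 95.5, 97.4 and 30.6 CPM in mock uncut tips and 190.3 and 311 CPM in L-Kyn uncut tips (log2 fold change 1.75, edgeR unadjusted p = 2.80e-04). In all 3 each L-Kyn library was above each mock library. Of the 31 detoxification genes 24 were positive in uncut tips (median 0.56, and 48.5% of all genes were positive), and of the 17 Aux/IAA genes 12 were negative (median -0.51, and 51.5% of all genes were negative). Of the 25 mitotic genes 17 were negative, with a median of -0.66, and 2 had an unadjusted p under 0.05 on the lower side. Of these 25, 11 lay below mock in both L-Kyn libraries (11.4% of all genes).

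The difference between the L-Kyn response of cut and of uncut tips was tested in the same fit. EdgeR and DESeq2 each called 0 genes (0.0%), and 419 of 16354 (2.56%) had an edgeR unadjusted p under 0.05. Over the 25 mitotic genes 23 differences were negative, meaning a lower fold change in cut tips, with a median of -1.07 (0.05 over all genes), and 3 had an unadjusted p under 0.05 (1.08% of all genes in that direction). These were TPX2 (difference -2.45), MAD2 (-1.79) and KN (-1.90), with edgeR unadjusted p of 0.0132, 0.0315 and 0.0396. In uncut tips TPX2 was at 19.4, 18.9 and 10.95 CPM in mock uncut tips and 17.2 and 18.4 CPM in L-Kyn uncut tips, and the groups overlapped. TMO6 was higher with L-Kyn in cut tips and at 42.8, 26.3 and 74.7 CPM in mock uncut tips and 23.3 and 34.8 CPM in L-Kyn uncut tips (difference 1.87, edgeR unadjusted p = 0.00599). TRM10 was at 19.7, 24.5 and 12.9 CPM in mock uncut tips and 10.1 and 24.1 CPM in L-Kyn uncut tips (difference -2.19, edgeR unadjusted p = 0.00271). For ABCC3, EMB1030 and ABCB4 the differences were 0.41, -0.43 and 0.05, with edgeR unadjusted p of 0.573, 0.740 and 0.932.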

How the data were processed

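Root tip RNA was sequenced with a 3′ kit that reads transcript ends. Levels were compared between libraries, for each gene or summed over a list, and no test compared levels between genes. The authors deposited raw read counts per locus (22093 loci). Per the submitters' processing notes, Bowtie2, HTSeq, DESeq2 and TAIR10 were used, with versions not given in the sources used here. Lines that name no gene (low alignment quality 47.0% to 83.2% of table totals in the 5 libraries, no feature 3.75% to 12.3%, ambiguous 0.0918% to 0.279%) were left out. Whether counting used strand is not given, so overlapping genes are uncertain. From the counts, edgeR 4.0.16 (R 4.3.3) fitted all 18 libraries with a mean for each of 7 groups, TMM factors, filterByExpr and Benjamini-Hochberg adjustment at 0.05; DESeq2 1.42.0, other filters, fits of fewer libraries and left-out libraries were alternatives. The fit was also run on simulated counts with known fold changes, and the outcome is not reported here. Those counts were drawn from a mean per gene over all libraries and a trend of spread with level. Group differences and a spread particular to each gene were thus left out. Symbols, products and promoters came from RefSeq TAIR10.1 (21793 loci found); 18 of 575 list entries did not match it. Named genes have a symbol, at least 10 CPM in the higher group and no overlap between libraries, and are the 10 on each side with the smallest p, as none was called; a panel of 25 genes was added. List members, lists and other genes named were chosen with earlier results of these data known, and those outside the rule after their values were seen. Python 3.11.15, pandas 2.3.3, numpy 2.4.6 and matplotlib 3.10.9 were used.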

Additional observations from a re-analysis of the deposited data

How the results depend on the processing

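The count of genes called depended on the libraries that estimate the spread and on the test. EdgeR called 0 genes with all 18 libraries, with RLE factors and with the stricter filter (mean of 5 CPM), and 1 without a filter. It called 37 with the 5 libraries alone, 34 with the 7 at 6 h, 2 without L-Kyn cut 3 h replicate 2, and, chosen after seeing the data, 55 with the 9 libraries that hold the 6 h groups and mock uncut replicates 1 and 2. DESeq2 called 54 with all libraries and, added after seeing the data, 242 with the 5. Leaving out each of the 5 libraries in turn gave 0 calls throughout in the fit of all libraries, and in the fit of the groups compared, added after seeing the data, 3 to 2034, with 2034 without L-Kyn replicate 1, 32 and 3 without L-Kyn replicates 2 and 3, and 33 and 5 without mock replicates 1 and 2; where 1 mock library was left it was assumed to vary like the L-Kyn libraries. The cause was not tested. Of the 37 genes called with 5 libraries, 35 were called with 9, and all 37 had the same sign in the fit of all libraries. For uncut tips the count of 0 became 56 with DESeq2, 5 without a filter, 42 with the 9 libraries, 5 without L-Kyn cut 3 h replicate 2, and 0 to 2 when a library compared was left out (the DESeq2, 9-library and left-out fits here were added after seeing the data). The difference between cut and uncut tips had 0 calls in all settings run except the 9 libraries, with 1, TI1 (AT2G43510), a trypsin inhibitor gene.

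Replicate numbers are not stated to pair libraries, and the deviations of same-numbered mock and L-Kyn libraries correlated at -0.08 and -0.03. With the number as a replicate block, 0 genes were called in each of the 3 comparisons.

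Of 38 named genes tested, only PLT1, YUC9 and ERF115 changed sign under an alternative. PLT1 had a log2 fold change of 0.025 with DESeq2 and 0.18 with the replicate block. Leaving out 1 library gave PLT1 values from -0.63 (without L-Kyn replicate 2) to 0.23 (without L-Kyn replicate 1), YUC9 from -0.10 (without mock replicate 1) to 1.66 (without mock replicate 2) and ERF115 from -0.64 (without mock replicate 1) to 0.43 (without mock replicate 2), all at low counts. Over all named genes and settings 581 values kept direction and side of the threshold and 92 passed it. List medians moved by less than the spread between L-Kyn libraries in 528 cases and by more in 89.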

Other observations

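Gene families taken from the RefSeq product names, chosen after the values were seen, held further shifts. Ribosomal protein genes had 339 members tested, of which 282 had negative log2 fold changes with L-Kyn in cut tips (50.4% of all genes tested), with a median of -0.46. In uncut tips 185 were negative (51.5% of all genes), with a median of -0.06. Their summed level was 156726 and 187689.7 CPM with mock and 166489.7, 104385 and 117347 CPM with L-Kyn. L-Kyn replicate 1 lay between the mock libraries and replicates 2 and 3 below both. DESeq2 called 4 of them (0.513% of all genes were called) and the 5-library edgeR fit 0 (0.274%). UDP-glycosyltransferase genes had 90 members tested, 71 with positive values and a median of 0.60, and their summed level was 2535 and 2562 CPM with mock and 3474, 6135 and 4752 CPM with L-Kyn, without overlap. In uncut tips their median was 0.04 and 44 of 90 were negative. Proteasome genes had 33 of 44 members negative (median -0.25), and histone genes 27 of 39 positive (median 0.24), with L-Kyn replicate 1 as the highest histone library at 16622 summed CPM.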
